A study of Mus musculus with 2 samples.

Results

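The galectin genes Lgals1, Lgals3, Lgals8 and Lgals9 and the MIF pathway genes Mif, Ddt and Cd74 were followed in single-cell RNA-seq of gonadal white adipose tissue (gWAT). The 7 genes were chosen by name as ligand and receptor genes, from 31054 genes in the count tables, and all 7 were detected in both libraries. Stromal vascular cells came from male mice of 18 months that carried p16-CreERT2, a tamoxifen-activated Cre under control of the p16 gene, and R26-LSL-tdTomato, a reporter that Cre switches on. All the mice received tamoxifen. Cells without CD31 or CD45 at the surface, a gate against endothelial cells and leukocytes, were sorted into tdTomato-positive (Tom+) and tdTomato-negative (Tom-) cells, with 1 library of each. The number of mice behind each library was not given in the sources used here. The reporter records p16 promoter activity at the time of tamoxifen, so it is a history of the cell and not its p16 level when sorted. With 1 library a fraction, no test between the fractions was possible, and Tom status and library preparation cannot be told apart.

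Galectins are lectins that bind galactose-containing glycans on cell surfaces, in the matrix and on damaged vesicles. Galectin-1, encoded by Lgals1, forms dimers that cross-link glycoproteins, and galectin-3, encoded by Lgals3, can form larger assemblies. Galectin-8 and galectin-9, encoded by Lgals8 and Lgals9, join a pair of sugar-binding domains in 1 chain, and galectin-8 marks damaged endosomes for autophagy. Mif encodes macrophage migration inhibitory factor, a cytokine stored in the cytosol, and Ddt encodes its relative D-dopachrome tautomerase. Both bind CD74, which is also the invariant chain that escorts MHC class II molecules through the cell. Mesothelial cells form the serosal sheet over visceral fat, and adipose progenitor cells (APCs) lie within it.

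In GRCm38, Lgals1 (ENSMUSG00000068220) lies on chromosome 15 from 78926725 to 78930465 and Lgals3 (ENSMUSG00000050335) on chromosome 14 from 47367751 to 47386160. Lgals8 (ENSMUSG00000057554) lies on chromosome 13 from 12439415 to 12464944, and Lgals9 (ENSMUSG00000001123) on chromosome 11 from 78962974 to 78984946. Mif (ENSMUSG00000033307, 75859353 to 75860240) and Ddt (ENSMUSG00000001666, 75771230 to 75773414) are neighbours on the minus strand of chromosome 10, with 85938 bases between them. The annotation names 2 pseudogenes of Mif and 2 of Lgals1 after the gene, and copies under other names were not counted. How reads that such copies share were treated was not examined, so the levels of Mif and Lgals1 carry that uncertainty.

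RefSeq start-site windows in GRCm38.p6 were found for 5 of the 7 genes. The stretches before the start site of Mif, Ddt and Lgals3 are shown. Mif and Ddt were chosen as paralogous neighbours, of which Mif differed between the libraries in stromal cells and Ddt differed little. Lgals3 was chosen as the galectin of the set with the larger mesothelial excess. Each run reads 5' to 3' on the gene's strand, ends at the start site or before the first base that GENCODE places in an exon, and has in capitals any match on either strand to 5 motifs, which did not overlap here. The motifs were the GC box (GGGCGG), the CCAAT box (spelled as its name), the E-box (CACGTG), the CRE (TGACGTCA) and the TATA box (TATAAA). Mif at chr10:75860278-75860527, minus strand, is 250 bases, Ddt at chr10:75773415-75773624, minus strand, is 210 bases, and Lgals3 at chr14:47373610-47373812, plus strand, is 203 bases.
Mif: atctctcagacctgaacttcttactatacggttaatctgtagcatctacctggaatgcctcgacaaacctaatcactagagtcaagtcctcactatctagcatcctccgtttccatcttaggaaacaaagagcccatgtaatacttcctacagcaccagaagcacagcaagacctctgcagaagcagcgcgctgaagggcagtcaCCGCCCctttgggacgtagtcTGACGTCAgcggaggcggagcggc
Ddt: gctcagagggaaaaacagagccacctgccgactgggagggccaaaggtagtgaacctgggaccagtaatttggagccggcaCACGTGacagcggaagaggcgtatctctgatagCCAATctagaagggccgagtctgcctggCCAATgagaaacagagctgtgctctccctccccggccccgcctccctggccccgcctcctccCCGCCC
Lgals3: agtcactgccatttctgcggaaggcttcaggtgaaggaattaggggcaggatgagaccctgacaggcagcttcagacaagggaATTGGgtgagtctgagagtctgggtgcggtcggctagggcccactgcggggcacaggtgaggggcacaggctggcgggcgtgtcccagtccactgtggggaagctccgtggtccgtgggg
The Mif run held 1 GC box and the CRE, the Ddt run an E-box, 2 CCAAT matches and 1 GC box, and the Lgals3 run 1 CCAAT match. The full 250 bases before the Lgals3 start site also held 1 GC box, in the 47 exon bases left out of the run. This Lgals3 window lies inside the gene span given above. Over the 250 bases before the start site of 32851 windows of the genome, 32.7% held the GC box, 33.8% the CCAAT box, 6.02% the E-box, 1.55% the CRE and 12.4% the TATA box. These matches describe the letters and are not evidence of a bound factor.

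Filters on genes detected (above 1000, below 7000) and on mitochondrial UMIs (below 8%) left 3524 Tom+ cells (median 14392.5 UMIs, unique molecular identifiers) and 6717 Tom- cells (median 11910). Cells with at least 10 UMIs over Msln, Upk3b, Krt19, Lrrn4 and Upk1b were called mesothelial, 250 in the Tom+ and 1887 in the Tom- library, and cells with under 5 were called stromal, 3263 and 4800. The classes mostly carried the markers of their names. CPM are UMIs of a gene scaled to the same total for each class. Upk3b was at 1873 and 1843 CPM in Tom+ and Tom- mesothelial cells against 2.31 and 10.4 in stromal cells. The limits on marker UMIs set that difference in advance. All 8 mesothelial markers outside the rule were higher in mesothelial cells of both libraries, with median log2 ratios of 8.41 and 7.01. Of 11 stromal progenitor markers, 9 were lower in mesothelial cells of each library and 2 were higher. Pdgfra, a receptor of mesenchymal progenitors, was at 344 and 282 CPM in stromal cells against 41.9 and 51.4. Dpp4 and Cd34 went the other way, Dpp4 at 60.7 and 50.7 CPM in stromal cells against 278 and 265. The sort was also visible, with tdTomato RNA at 211 CPM in stromal cells of the Tom+ library against 13.1 CPM, while Cdkn2a, the gene that encodes p16, was at 4.66 and 5.79 CPM there. In mesothelial cells Cdkn2a went the other way, at 12.4 CPM for Tom+ against 8.47 CPM for Tom- cells. Its stromal levels lie near the limit of 5 CPM used below, and counts per gene do not tell its transcripts apart. By quantitative PCR, the paper that reported these data found p16 raised in Tom+ over Tom- APCs of old mice. Despite the CD45 gate, immunoglobulin genes made up 5.97% of the UMIs of Tom+ stromal cells and 1.44% of those of Tom- stromal cells, and 2224 barcodes occurred in both libraries, although 9 were kept in both. Among kept cells, 100 of 250 Tom+ and 207 of 1887 Tom- mesothelial cells had a barcode that the other library also listed, as did 404 Tom+ and 75 Tom- stromal cells. Whether these cells hold reads of the other library was not tested, so each level in Tom+ mesothelial cells, the class with the largest such share, carries that doubt, and the ratios without these cells are given further on.

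Lgals1 and Lgals3 were mesothelial-high galectins in both libraries. Lgals1 was at 3864 and 3091 CPM in Tom+ and Tom- mesothelial cells, against 962 and 790 CPM in stromal cells. Lgals3 was at 660 and 655 CPM in mesothelial cells against 63.5 and 56.7 CPM in stromal cells. The mesothelial values of both genes lay above the stromal ones in each library. For Lgals1 the log2 ratio of mesothelial over stromal was 2.01 (95% interval 1.98 to 2.03) for Tom+ cells and 1.97 (1.95 to 1.98) for Tom- cells, and for Lgals3 it was 3.38 (3.31 to 3.45) and 3.53 (3.48 to 3.58). Intervals are exact and cover counting error alone.

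The other galectins of the set differed little between the classes. Lgals8 was at 60.1 and 51.8 CPM in Tom+ and Tom- mesothelial cells and at 43.6 and 42.6 CPM in stromal cells, log2 ratios of 0.46 (0.29 to 0.63) and 0.28 (0.19 to 0.37). Lgals9 went the other way, at 78.9 and 68.6 CPM in mesothelial and 83.5 and 94.7 CPM in stromal cells. Its log2 ratio was -0.08 in the Tom+ library, with an interval that held 0 (-0.23 to 0.06), and -0.47 (-0.54 to -0.39) in the Tom- library. Without leukocyte-rich cells, defined further on, it was -0.20 (-0.35 to -0.04) and -0.51 (-0.58 to -0.43).

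Among the ligands of the MIF pathway, Mif stood at 130 and 131 CPM in Tom+ and Tom- mesothelial cells, at 185 CPM in Tom+ stromal cells and at 122 CPM in Tom- stromal cells. Tom+ stromal cells were thus the group apart. The log2 ratio of mesothelial over stromal was -0.51 (-0.63 to -0.40) among Tom+ cells but 0.10 (0.05 to 0.16) among Tom- cells. Ddt was lower in mesothelial cells of both libraries, at 44.5 and 46.3 CPM against 57.8 and 61.0 CPM, log2 ratios of -0.38 (-0.57 to -0.18) and -0.40 (-0.49 to -0.31).

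Cd74, the receptor (ENSMUSG00000024610, chromosome 18 from 60803848 to 60812652), was at 411 and 492 CPM in Tom+ and Tom- mesothelial cells and at 219 and 146 CPM in stromal cells. The log2 ratios were 0.91 (0.84 to 0.97) and 1.75 (1.71 to 1.79), and the stromal values rested on few cells, as described further on. With a 2-fold difference as the limit, since no test was possible, 2 of the 7 genes were higher in mesothelial cells of the Tom+ library (Lgals1 and Lgals3), where 13.1% of the 10240 genes whose mean reached 5 CPM were, and 0 were lower, against 10.1% of those genes. In the Tom- library 3 of 7 were higher (Cd74 as well) against 11.9% of 10019 genes, and 0 lower against 9.22%. The median log2 ratio of all tested genes was 0.11 and 0.14, and that of the 7 genes 0.46 and 0.28. Scaling by median-of-ratios size factors, which removes that shift, put the small Tom- ratio of Mif at -0.04.

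**Figure D1:**
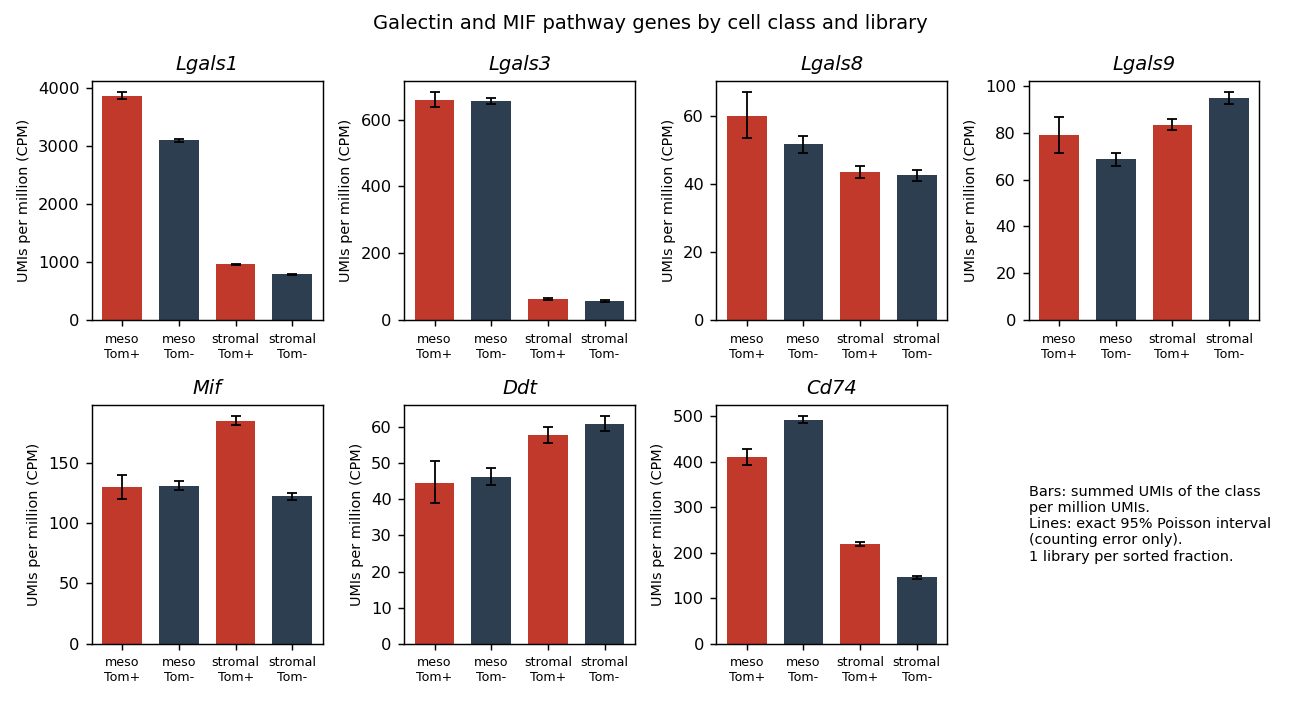
Level of each of the 7 genes in CPM (UMIs scaled to the same total for each class), for mesothelial (meso) and stromal cells of the Tom+ (red) and Tom- (dark) library. Bars start at 0 and lines are exact 95% Poisson intervals of the summed UMIs; Lgals1 and Lgals3 stand higher in both mesothelial groups, and Mif stands highest in Tom+ stromal cells at 185 CPM.

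**Figure D2:**
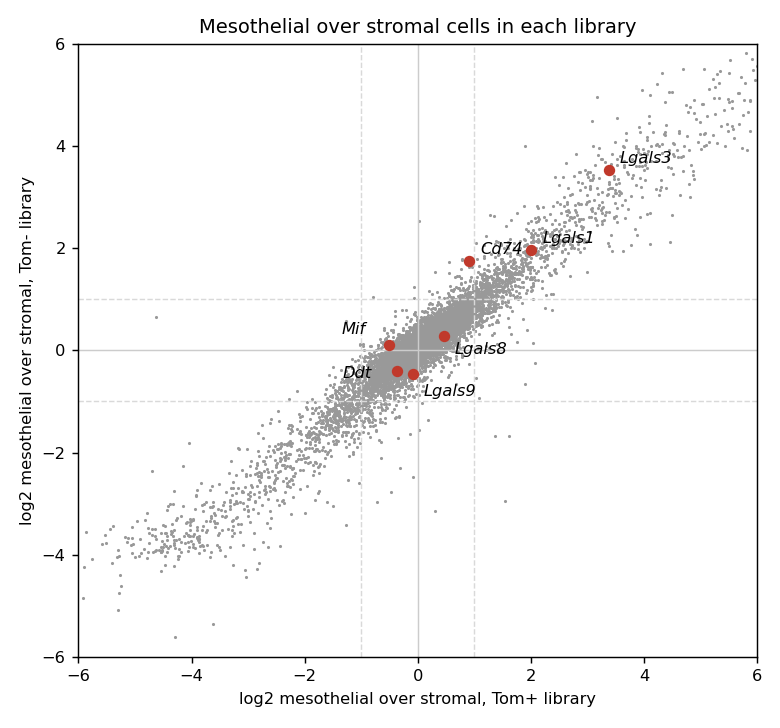
Log2 ratio of mesothelial over stromal cells in the Tom+ library (x axis) and the Tom- library (y axis), with all genes whose mean reached 5 CPM in both libraries in grey and the 7 genes in red. Dashed lines mark a 2-fold difference and 131 genes lie outside the axes; Lgals1 and Lgals3 lie past the lines on both axes, and Cd74 on the Tom- axis alone.

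The same contrast was visible cell by cell. With every cell thinned to 7461 UMIs, to make depths equal, an Lgals3 UMI was found in 93.1% of 247 Tom+ mesothelial cells (Clopper-Pearson interval 89.2 to 95.9) and in 26.1% of 2999 Tom+ stromal cells (24.6 to 27.8). In the Tom- library it was found in 1637 of 1791 mesothelial cells, or 91.4%, and in 28.1% of 4172 stromal cells (26.8 to 29.5). Without thinning the shares were 97.6% and 38.9% for Tom+ cells and 94.8% and 37.6% for Tom- cells. Lgals1 was found in nearly every thinned cell of either class, from 96.6% to 100%, so its difference was one of amount, with a median of 24 and 17 UMIs per thinned mesothelial cell against 6 and 5 per stromal cell in the Tom+ and Tom- libraries.

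A thinned Mif UMI was found in 57.9% of Tom+ mesothelial (51.5 to 64.1), 59.2% of Tom- mesothelial (56.9 to 61.5), 66.7% of Tom+ stromal (65.0 to 68.4) and 53.7% of Tom- stromal cells (52.2 to 55.2). Without thinning they were 86.4%, 81.0%, 81.3% and 65.1%. The shares followed the order of the CPM in the stromal cells. Cd74 was found in 59.5% and 59.7% of mesothelial cells but in 7.70% and 6.78% of stromal cells (70.4%, 70.2%, 9.47% and 9.06% without thinning). For scale, Upk3b, a gene of the other class, gave a thinned UMI in 1.53% and 7.67% of stromal cells, and Pdgfra in 24.3% and 24.8% of mesothelial cells. The limit on marker UMIs caps Upk3b in stromal cells, so its share there is not a full measure of background. The stromal share of Cd74 lay below that capped share in the Tom- library, at 6.78% against 7.67%. In the Tom+ library it lay above, at 7.70% against 1.53%. The 300 Tom+ and 418 Tom- stromal cells with the most Cd74 held 100% of its thinned UMIs. The shares above fix that value, since 231 and 283 stromal cells had any thinned Cd74 UMI. It is thus no separate measure of how Cd74 was spread over stromal cells. Among mesothelial cells, the 25 Tom+ and 180 Tom- cells with the most Cd74 held 53.2% and 56.1% of its thinned UMIs.

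Across bins of the mesothelial marker sum in the Tom- library, of 1 to 4, 5 to 9, 10 to 19, 20 to 49 and 50 or more marker UMIs, Lgals3 was at 55.6, 241, 248, 443 and 717 CPM. Lgals1 was at 802, 1818, 1564, 2334 and 3313 CPM over the same bins, higher with 5 to 9 than with 10 to 19. Cd74 was at 242, 1155, 607, 805 and 417 CPM, with its highest value at 5 to 9. That bin, which belongs to neither class, held 30 cells with a median of 3316.5 UMIs. Tom- cells with 50 or more marker UMIs were also the deepest, with a median of 17555.5 UMIs against 10541 in the bin before, and the part of depth in these gradients was not tested. Most stromal cells had 0 marker UMIs, 3519 Tom- and 2951 Tom+ cells, with Cd74 at 107 and 195 CPM. Lgals3 and Lgals1 were at 57.2 and 786 CPM in those Tom- cells. In the Tom+ library Cd74 was at 419, 533, 285, 742 and 358 CPM over the same bins from 1 to 4 upward, highest at 20 to 49. Lgals1 there was at 956 CPM with 5 to 9 and 1822 CPM with 10 to 19, bins that held 11 and 5 cells.

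The galectin genes outside the set lay on both sides. Of 8 galectin-family genes whose mean reached 5 CPM, 4 were at least 2-fold higher in mesothelial cells of each library (Lgals1, Lgals2, Lgals3 and Lgals7). None was 2-fold lower, and the median log2 ratio was 1.23 and 1.12. Of all tested genes, 13.1% and 11.9% were at least 2-fold higher and 10.1% and 9.22% lower, Tom+ library first. Lgals2 was at 135 and 153 CPM in mesothelial cells against 0.235 and 0.933 CPM in stromal cells, and Lgals7, an epithelial galectin, at 262 and 267 CPM against 1.92 and 2.90 CPM. Lgals4, another epithelial galectin, and Lgalsl, a galectin-related gene, lay on the stromal side, Lgalsl at 16.5 and 16.6 CPM against 30.7 and 26.7 CPM.

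Among genes for proteins that galectins bind, Nrp1, a co-receptor of VEGF and semaphorins, was at 21.2 and 14.6 CPM in mesothelial and 187 and 173 CPM in stromal cells. It was the one gene of 10 tested in the Tom+ library that was 2-fold lower. In the Tom- library 2 of 9 were, Cd44, the hyaluronan receptor, being the second at 37.1 against 75.5 CPM. None was 2-fold higher. The highest log2 ratios were those of Lgals3bp (0.55 and 0.41), Pdcd6ip (0.38 and 0.43) and Trim16 (0.27 and 0.24), and the lysosomal membrane genes Lamp1 (-0.69 and -0.61) and Lamp2 (-0.70 and -0.60) were among the lowest. The medians of this list were -0.20 and -0.14. Among glycosyltransferases that build or cap galectin ligands, Gcnt1, which starts core-2 branches of O-glycans, was at 35.9 and 26.7 CPM in mesothelial cells against 0.47 and 0.33 CPM, and Gcnt2, which branches poly-N-acetyllactosamine, at 80.6 and 76.4 CPM against 6.79 and 8.88 CPM. With Mgat5 at a log2 ratio of 1.02 in the Tom+ library, 3 of 9 of these enzymes were 2-fold higher there and 2 of 8 in the Tom- library, and 0 were lower in either. The list medians were 0.37 and 0.52. Beside the counts of both lists, 13.1% and 11.9% of all tested genes were at least 2-fold higher and 10.1% and 9.22% lower. The lowest ratios in the Tom+ library were those of St6gal1 (-0.76), which adds sialic acid, Mgat1 (-0.12) and B4galt1 (-0.02), and in the Tom- library those of B4galt1 (0.05), Mgat4a (0.07) and Mgat1 (0.10).

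Of the receptors that act beside CD74, Ackr3, an atypical chemokine receptor that binds MIF, was at 299 and 331 CPM in mesothelial and 451 and 561 CPM in stromal cells, log2 ratios of -0.59 and -0.76. Cxcr4 was at or below 4.13 CPM and Cxcr2 at or below 0.59 CPM in all 4 groups. Cops5, a cytosolic partner of MIF, was at 45.5 and 51.2 CPM in mesothelial against 34.4 and 37.0 CPM in stromal cells. Of the 4 genes of this list whose mean reached 5 CPM, 0 passed 2-fold in the Tom+ library, and 2 did so among Tom- cells, Cd74 upward and Cd44 downward. The list medians were -0.09 and -0.15. Among all tested genes, 13.1% and 11.9% were at least 2-fold higher and 10.1% and 9.22% lower, Tom+ library first.

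Stromal cells were divided into 10 clusters, numbered by size. In clusters 1 to 7 the progenitor markers summed to between 30794 and 45370 CPM. Clusters 8, 9 and 10 held them at 24666, 7944 and 16180 CPM. The leading genes of clusters 1 to 7 were P2ry1 and Aspa (1), Efhd1 and Pi16 (2), Cpxm2 and Mfap4 (3), Chchd10 and Rab3b (4), Vdr and Adamts9 (5), Car3 and Cfd (6) and Pi15 and Eln (7). Cluster 8 was led by Clu, Gatm and Acta2, cluster 9 by immunoglobulin genes and cluster 10 by Mcpt4, Lyz2 and other mast cell and macrophage genes. Over clusters 1 to 7 of both libraries, Lgals1 ran from 665 CPM in cluster 3 to 1326 CPM in cluster 6, Lgals3 from 41.4 CPM in cluster 4 to 69.2 CPM in cluster 3 and Lgals8 from 40.0 to 49.1 CPM. Lgals9 was highest in cluster 2 at 123 CPM and lowest in cluster 6 at 67.4 CPM among these. Mif was highest in cluster 4 at 248 CPM, with clusters 7 and 6 next at 231 and 228 CPM, and lowest in cluster 2 at 95.2 CPM. Ddt ran from 46.8 CPM in cluster 3 to 78.1 CPM in cluster 6. The 7 genes were left out of the variable genes, so other genes of the same cells set the clusters. These levels are a description.

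The clusters led by leukocyte genes stood apart. In cluster 10, Lgals3, a gene that macrophages transcribe strongly, was at 650 CPM, near its mesothelial level, and its 115 cells held 12.9% of stromal Lgals3 UMIs with 1.19% of all stromal UMIs. In cluster 9, where Igkc alone was at 415831 CPM, the 6 genes other than Cd74 had their lowest values of the 10 clusters. Lgals1 was at 224 CPM and Mif at 61.5 CPM. So large an immunoglobulin share lowers the CPM of every other gene in this cluster. Levels without immunoglobulin UMIs were not computed, so these values do not show low expression in its cells.

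**Figure D3:**
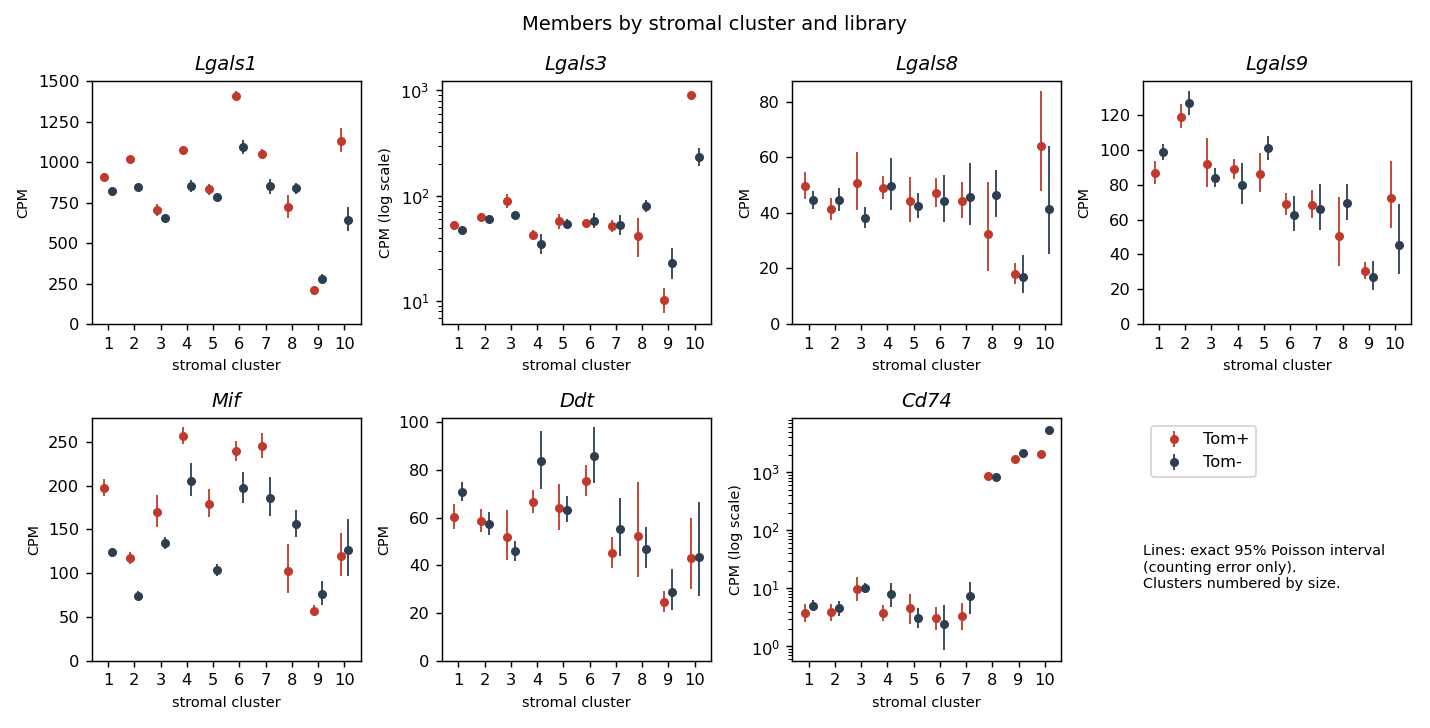
Level of each gene (y axis, CPM; log scale for Lgals3 and Cd74) in the 10 stromal clusters (x axis, numbered by size) for Tom+ (red) and Tom- (dark) cells, with exact 95% Poisson intervals. Mif is higher in the Tom+ library in clusters 1 to 7, and Cd74 stays at or below 10.3 CPM in clusters 1 to 7 and at 829 CPM or more in clusters 8 to 10 when both libraries are summed.

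Stromal Cd74 came from clusters 8, 9 and 10. Of all stromal Cd74 UMIs, 62.5% lay in the 172 cells of cluster 9, 21.8% in the 115 cells of cluster 10 and 13.2% in the 261 cells of cluster 8. The other 7 clusters held Cd74 at 2.90 to 10.3 CPM. Cd74 is a gene of B cells and macrophages, so leukocyte markers are given beside it. Over 21 leukocyte markers other than Igkc, Ighm and Jchain, the sum was 441 and 193 CPM in Tom+ and Tom- stromal cells, with all 21 detected, and 636 and 49.2 CPM in mesothelial cells, with 15 and 20 detected. Cd74 itself was at 219 and 146 CPM in Tom+ and Tom- stromal cells and at 411 and 492 CPM in mesothelial cells. Whether leukocytes were the source of this Cd74 was not tested.

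Leukocyte-rich cells, with at least 5 UMIs of those 21 genes or at least 5% of UMIs from the 3 immunoglobulin genes, numbered 202 and 113 among Tom+ and Tom- stromal and 20 and 23 among mesothelial cells. This definition was made after the data were seen. Without them the marker sum was 25.7 and 20.6 CPM in stromal cells and 40.5 and 29.5 CPM in mesothelial cells. In the mesothelial cells that remained, 14 and 19 of the 21 were detected, with Cd79b, Ms4a1, Cd3d, Trac, Nkg7 and Coro1a among those at 0 in Tom+ cells and Adgre1 and Itgax at 0 in Tom- cells. In the stromal cells 20 and 19 were detected, with Nkg7 at 0 in Tom+ cells and Cd3e among those at 0 in Tom- cells. The mesothelial level of Cd74 then was 387 CPM (370 to 405) and 473 CPM (466 to 481), and the stromal level 11.4 CPM (10.4 to 12.4) and 31.6 CPM (30.2 to 33.1), Tom+ first. The log2 ratio of mesothelial over stromal became 5.09 and 3.90. Ptprc, the gene of CD45 and one of the 21, was at 0.63 and 0.13 CPM in these mesothelial cells. Because the 21 genes define the cells left out, their low sums, the genes at 0 and the Ptprc level follow in part from that step.

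Within the mesothelial cells, clustered after the data were seen, the highest over the lowest level in the 7 clusters of 30 cells or more was 2.03 for Lgals1, 2.23 for Lgals3 and 1.38 for Mif. Lgals1 ran from 1926 CPM in cluster 6 to 3916 CPM in cluster 1, Lgals3 from 420 CPM in cluster 5 to 935 CPM in cluster 7, and Mif from 117 CPM in cluster 5 to 162 CPM in cluster 6. Even the lowest of these Lgals1 and Lgals3 levels lay above those of stromal clusters 1 to 7. Mesothelial cluster 5 had stromal progenitor markers at 24802 CPM, against 15343 to 18612 CPM in the rest of the 7 clusters. Its sum of the 5 rule markers was the lowest of the 7, at 2591 CPM, and its median of 24577 UMIs the highest. Whether its cells were mixtures of mesothelial and stromal cells was not tested.

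Cd74 ran from 211 CPM in cluster 6 to 614 CPM in cluster 1 over the same 7 mesothelial clusters. It was at 2187 CPM in cluster 8, whose 14 cells were led by Lyz2 and C1qa. Of the MHC class II genes that CD74 serves, H2-Aa went from 55.3 CPM in mesothelial cluster 3 to 145 CPM in cluster 1, and Cd74 over the sum of H2-Aa, H2-Ab1 and H2-Eb1 was between 1.30 and 2.01 in those 7 clusters. In stromal cluster 9 it was 14.4. Of 9 genes of class II presentation whose mean reached 5 CPM, 5 were at least 2-fold higher in mesothelial cells of each library, against 13.1% and 11.9% of all tested genes. These were H2-Aa, H2-Ab1, H2-Eb1, H2-DMa and H2-DMb1, the last with the largest Tom+ ratio at 2.83. The median log2 ratio was 2.19 and 1.81 over the list. Ctss, a protease of macrophages that cleaves the invariant chain, was on the stromal side at -0.71 and -2.97, and in the Tom- library it was 2-fold lower.

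Stromal cluster 8 held Cd74 in cells that were mostly not leukocyte-rich. In its 215 Tom- and 36 Tom+ cells of that kind, Cd74 was at 653 CPM (620 to 687) and 737 CPM (662 to 818), H2-Aa at 211 and 257 CPM and Pdgfra at 203 and 259 CPM. Over all its cells Igkc was at 19062 CPM. Ptprc, a marker used to define leukocyte-rich cells, was at 0.45 CPM from 1 UMI in those Tom- cells and at 0 in the Tom+ cells. Upk3b was at 19.2 and 2.09 CPM in them, a gene that the limit on marker UMIs keeps low in any stromal cell. Without this cluster as well as the leukocyte-rich cells, the stromal level of Cd74 was 3.54 CPM (3.01 to 4.14) for Tom+ and 5.35 CPM (4.75 to 6.01) for Tom- cells.

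**Figure D4:**
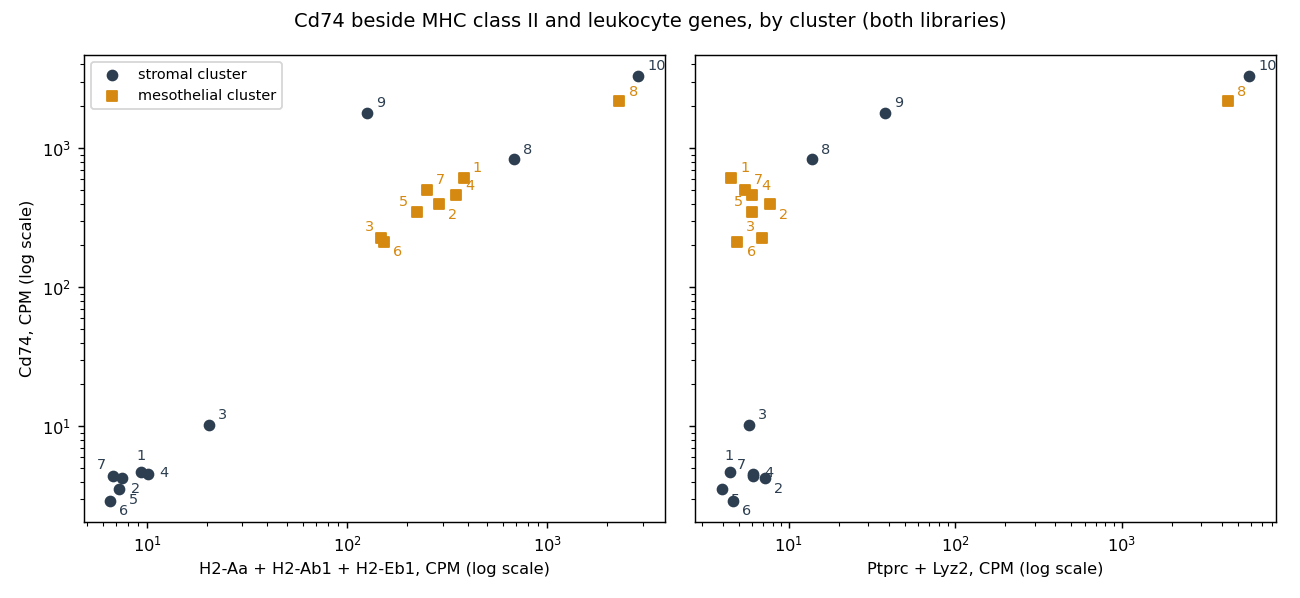
Cd74 (y axis, CPM, log scale) in stromal (dark circles) and mesothelial clusters (orange squares), labelled by number and summed over both libraries, against the sum of 3 MHC class II genes (left) and of the leukocyte genes Ptprc and Lyz2 (right), both in CPM on a log scale. Mesothelial clusters 1 to 7 lie between 211 and 614 CPM of Cd74 at a similar Ptprc and Lyz2 sum to stromal clusters 1 to 7, which lie at or below 10.3 CPM.

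Between the libraries none of the 7 genes passed 2-fold over all cells of either class. In stromal cells 0.869% of 9778 genes were at least 2-fold higher and 0.982% at least 2-fold lower in the Tom+ library, and in mesothelial cells 0.689% and 0.34% of 10014 genes. No list of partners, glycan enzymes or receptors had more than 1 gene past 2-fold between the libraries in either class. Of the galectins, Lgals1 was higher in the Tom+ library in both classes, at 962 against 790 CPM in stromal cells and 3864 against 3091 CPM in mesothelial cells, log2 ratios of 0.28 (0.27 to 0.30) and 0.32 (0.30 to 0.34). These stood at percentiles 79.1 and 91.2 of all tested genes. Within stromal clusters it was higher in the Tom+ library in 8 of 10, with cluster 10 the largest at 0.81, and lower in clusters 8 and 9. Without the leukocyte-rich cells the stromal ratio of Lgals1 was 0.38. It was -0.10 when cells with 2 or more leukocyte UMIs were left out, which left 25 Tom+ stromal cells. Lgals3 and Lgals8 ratios lay between 0.01 and 0.22 in either class, and in stromal cells that of Lgals3 was -0.03 without the leukocyte-rich cells and that of Lgals8 -0.04 with median-of-ratios scaling. Within stromal clusters the Lgals3 ratio ran from -1.17 in cluster 9 to 1.94 in cluster 10. It was above 0 in 6 of 10. Lgals9 was lower in Tom+ stromal cells at -0.18 (-0.24 to -0.12) and higher in Tom+ mesothelial cells at 0.20 (0.05 to 0.35). With each stromal cluster given the same weight, its stromal ratio was 0.04.

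Over all stromal cells Mif differed about as much as Cd74, with 185 CPM in Tom+ and 122 CPM in Tom- cells. The log2 ratio was 0.60 (0.55 to 0.64), at percentile 96.4, while its mesothelial ratio was -0.02 (-0.13 to 0.10). Cluster 4, with the highest Mif, held 729 Tom+ and 202 Tom- cells. Within clusters, Mif was higher in Tom+ cells of each of clusters 1 to 7, with ratios from 0.27 (0.13 to 0.42) in cluster 6 to 0.79 (0.63 to 0.95) in cluster 5. In cluster 1 it was at 197 against 124 CPM, and in cluster 2 at 117 against 74.4 CPM. It was lower in Tom+ cells of cluster 8 at -0.61 (-1.03 to -0.20) and of cluster 9 at -0.43 (-0.74 to -0.11). With all 10 clusters given the same weight the mean ratio was 0.23. Without the leukocyte-rich cells the stromal levels were 201 and 122 CPM and the ratio 0.72 (0.68 to 0.77). Ddt, its paralogue and neighbour, showed no such excess, at 57.8 and 61.0 CPM, a ratio of -0.08 (-0.15 to -0.01), and it was lower in the Tom+ library in 6 of 10 clusters, with 2 of the 6 intervals below 0. Without the leukocyte-rich cells both libraries had Ddt at 61.9 CPM.

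The stromal ratio of Cd74 depended on which cells were counted. It was 0.59 (0.54 to 0.63) over all stromal cells, at 219 against 146 CPM, and -1.48 (-1.62 to -1.33) without the leukocyte-rich cells. Cluster 8, where Cd74 was high, held 36 Tom+ and 215 Tom- cells that were not leukocyte-rich. In those cells Cd74 was at 737 CPM for Tom+ and 653 CPM for Tom-. Over all cells of that cluster, leukocyte-rich ones included, the ratio was 0.07 (-0.07 to 0.22). With cluster 8 left out as well, the stromal levels were 3.54 CPM for Tom+ and 5.35 CPM for Tom- cells. Within clusters Cd74 was lower in the Tom+ library in 7 of 10, with 3 intervals below 0, and cluster 9, where most of its UMIs lay, held 131 Tom+ and 41 Tom- cells. In mesothelial cells the ratio was -0.26 (-0.33 to -0.20) over all cells and -0.29 without the leukocyte-rich ones. It was -0.46 (-0.55 to -0.37) in mesothelial cluster 1 and 0.35 (0.19 to 0.50) in cluster 2, the clusters with enough cells of both libraries.

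**Figure D5:**
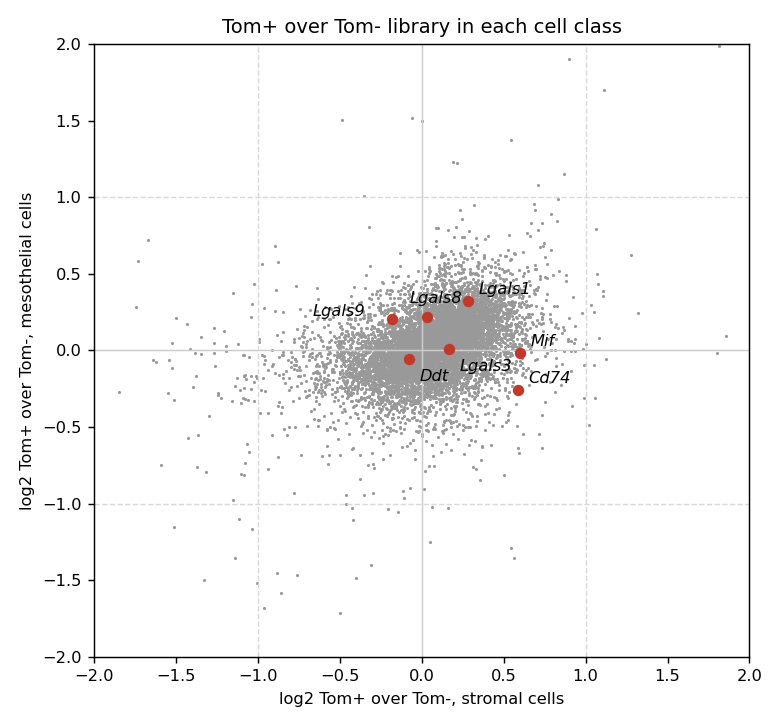
Log2 ratio of the Tom+ over the Tom- library in stromal cells (x axis) and mesothelial cells (y axis), with all genes whose mean reached 5 CPM in both classes in grey and the 7 genes in red. Dashed lines mark a 2-fold difference and 36 genes lie outside the axes; no member passes a line, Mif and Cd74 lie farthest right at 0.60 and 0.59, and Lgals1 lies above 0 on both axes.

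Leaving out cells whose barcode occurred in both libraries kept the large class differences, with log2 ratios of mesothelial over stromal of 2.02 and 1.95 for Lgals1 and 3.40 and 3.46 for Lgals3 in the Tom+ and Tom- libraries. For Mif these ratios were -0.66 and 0.11, for Ddt -0.38 and -0.39, for Lgals8 0.52 and 0.24, for Lgals9 -0.13 and -0.50 and for Cd74 3.42 and 2.28. The stromal ratio of Tom+ over Tom- was 0.69 for Mif, 0.34 for Lgals1 and -0.10 for Lgals9. That of Cd74 changed sign in both classes, to -0.91 in stromal and 0.24 in mesothelial cells.

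To set each gene beside others, Pearson's r was taken over 22 sums, those of the stromal clusters by library and the mesothelial cells of each library, among 5870 genes whose mean reached 20 CPM. The sums share libraries, and the clusters led by leukocyte genes and the mesothelial sums weigh heavily, so r is a description. Lgals1 was most like Atg3 (r = 0.96), Afdn and Ndufb4 (both 0.94), and Lgals3 like Card19, Creg1 (both 0.91) and Mboat7 (0.90). Lgals8 was most like Nedd8, Fxr1 (both 0.94) and Bri3 (0.93), and Lgals9 like Mill2 (0.93), Timp2 (0.92) and Bmpr2 (0.91). Mif was most like Ttc3, P3h1 and Hacd3 (each 0.84), Ddt like Ube2w (0.94), Fbln5 (0.92) and Asap1 (0.91), and Cd74 like Tspan13, H2-Ab1 (both 0.97) and Mef2c (0.93). Within the set, Lgals1 and Lgals8 were the most alike at 0.80, and Mif and Ddt were at 0.64. Cd74 and Ddt were the least alike at -0.74.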

How the data were processed

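Single-cell suspensions of gWAT were sequenced with the 10x Genomics Chromium 3' kit, and per the submitters' processing notes Cell Ranger 3.0.2 and the mm10 genome were used. The authors deposited whole-number UMI counts per gene and barcode, without normalization, for 5566 Tom+ and 11838 Tom- barcodes (61119807 and 96872394 UMIs, all barcodes at 500 UMIs or more). The strand setting of the counting was not given in the sources used here. Counts were summed per class and library and scaled to CPM. Ratios were called past 2-fold (absolute log2 ratio of at least 1) among genes whose mean reached 5 CPM. Levels have exact Poisson and shares and ratios Clopper-Pearson intervals at 95%, which cover counting error only. On simulated Poisson counts with 200 changed genes in each of the 4 comparisons, the intervals covered between 95.1% and 95.7% of true ratios. Spread between cells or libraries was not simulated, so this checks the calculation only. Stromal and mesothelial cells were clustered apart (scanpy 1.11.5, 2000 variable genes, 30 principal components, 20 neighbours, Leiden resolution 0.5) in Python 3.11.15 with scipy 1.17.1. No doublet caller was run. The 24 leukocyte markers include Igkc, Ighm and Jchain.

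The members and gene lists were chosen with earlier results of these data known. All 7 members were named. For each list, the counts past 2-fold in each direction were taken and genes named from the 3 highest and 3 lowest ratios. For each member the 3 genes of highest correlation were named. Alternatives covered scaling, cell weights, cell filters, thinning, the mean CPM, the marker limits, the cluster resolution and cluster weights. The settings without leukocyte-rich cells and without the stromal cluster led by Clu, and the mesothelial clusters, were chosen after seeing the data. The value of 1 marker is not reported here.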

Additional observations from a re-analysis of the deposited data

Results flagged for a closer look

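With counting intervals that did not hold 0, the Mif ratio of mesothelial over stromal cells was -0.51 in the Tom+ and 0.10 in the Tom- library, on opposite sides of 0. With median-of-ratios scaling the Tom- ratio was -0.04, on the same side as the Tom+ ratio. The difference between the libraries was not tested, since each is 1 library. Lgals9 had a ratio of Tom+ over Tom- of -0.18 in stromal and 0.20 in mesothelial cells, and Cd74 of 0.59 in stromal and -0.26 in mesothelial cells, again opposite and not tested. The Cd74 values changed sign in both classes without shared barcodes (-0.91 and 0.24).

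The cells with 5 to 9 mesothelial marker UMIs, which belong to neither class, held Cd74 at 1155 CPM (1006 to 1320) in the Tom- library, above both classes. They were 30 cells with a median of 3316.5 UMIs, and 0 of them were leukocyte-rich. The limit of 5 leukocyte UMIs is harder to reach at that depth. H2-Aa was at 225 CPM in these cells. In the Tom+ library 4 of the 11 cells of that bin were leukocyte-rich, with Cd74 at 533 CPM (357 to 766) over the bin.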

How the results depend on the processing

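No paired analysis was possible because each sorted fraction has 1 library. The counts of genes past 2-fold were 2379 and 2119 for mesothelial over stromal in the Tom+ and Tom- libraries and 181 and 103 for Tom+ over Tom- in stromal and mesothelial cells. Without a filter on the mean they were 10045, 9063, 5076 and 5421, and with a mean of at least 20 CPM 1296, 1178, 84 and 31. Leaving out cells with 2 or more leukocyte UMIs left 25 Tom+ stromal cells and 0 Tom+ mesothelial cells, so that 2136 genes passed for the stromal comparison and the comparisons with Tom+ mesothelial cells could not be made. In mesothelial cells 155 genes passed with cells thinned to 1 depth, and 37 without leukocyte-rich cells, whether or not the stromal cluster led by Clu was left out too, settings chosen after the data were seen.

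The ratios of mesothelial over stromal for Lgals1 and Lgals3 kept their sign and stayed past 2-fold under all 9 Tom+ and 10 Tom- alternatives, from 1.83 to 2.07 for Lgals1 and from 3.26 to 3.59 for Lgals3. Mif kept its sign in stromal cells under all 11 alternatives (0.23 to 0.73), while Cd74 kept it under 6 of 11 (-2.39 to 0.82), with -0.36 when each stromal cluster had the same weight. The cause of these changes was not tested. Depth limits Lgals8, Ddt and Lgals9 in Tom+ mesothelial cells, where 250 cells gave 320, 237 and 420 UMIs.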
